A study of Mus musculus with 3 samples.

Results

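Integrins and laminins are the receptor and ligand families through which cells hold on to basement membranes. The genes described here are the 37 of 24421 counted genes whose symbols name an integrin α subunit, an integrin β subunit or a laminin α, β or γ chain (Itga followed by a number or by the letter d, e, l, m, v or x, Itgb, Lama, Lamb and Lamc). They comprise 26 integrin genes and 11 laminin genes, chosen by name and not by their expression. The mean over the 3 libraries was at least 10 reads for 36 of them, and Itgax, a leukocyte integrin α subunit, had 2, 1 and 5 reads. Here and below, reads are given in the order control, KD-1, KD-2, and log2 fold changes over control in the order KD-1, KD-2.

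Expression was measured by RNA-Seq of total RNA in undifferentiated EL16.7 cells, a female mouse embryonic stem (ES) cell line with a strain label of F2 and 129S1/CastEiJx 129S1. Cells of the control group, labelled wild type, carried a control (scramble) shRNA, and cells of the groups NUP153 KD-1 and NUP153 KD-2 carried 1 of 2 shRNAs against Nup153, which encodes a nucleoporin of the nuclear basket. All 3 groups were transduced with lentivirus, grown with LIF on a layer of γ-irradiated embryonic fibroblasts from Tg(DR4)1Jae/J mice, and selected with puromycin at 2 μg/ml for 2 days. The comparison asks which genes change when NUP153 is depleted. There was 1 library for each condition and hence no spread between replicates, and a difference between libraries is not shown to be one between conditions.

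Integrins are heterodimers of an α and a β subunit that span the plasma membrane, bind matrix proteins or other cells outside, and connect to actin inside through talin and kindlin. Laminins are cross-shaped trimers of an α, a β and a γ chain, secreted by the cells that lay down a basement membrane, and the α chain carries most of the sites that integrins bind. In the early embryo Lama1, Lama5, Lamb1 and Lamc1 provide the laminins of the first basement membranes, and ES cells hold to laminin mainly through Itga6 paired with Itgb1.

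Reads on genes numbered between 69839336 in KD-2 and 85258834 in KD-1. Nup153 itself had 27870, 16451 and 11126 reads, so that after scaling 50.4% of the control level was left with the first shRNA and 37.1% with the second. Of the markers of pluripotent ES cells, 10 of 10 were detected in every library, with 35405, 45092 and 32962 reads for Pou5f1. Their summed level, as CPM (read counts relative to the scaled library size), was 4896, 5387 and 3637, and their median log2 fold changes were 0.18 and -0.25. Zfp42 (-0.70) and Tdgf1 (-0.61) were called lower in KD-2, and Utf1 was called higher in both, at 0.69 and 1.17. The markers of fibroblasts were detected too, 13 of 13 in every library, and their summed level was 1286, 598 and 2528 CPM. The fibroblast collagen gene Col3a1 had 54628, 25523 and 114064 reads. Compared to control, 8 of the 13 fibroblast markers were called lower and 0 higher in KD-1 (median log2 fold change -0.83), and 11 were called higher and 0 lower in KD-2 (median 0.79). All 3 groups grew on the feeder layer, and whether it was removed before RNA extraction is not given in the sources used here. In addition, in a bulk library more cells of a type cannot be told apart from more RNA per cell. What part the fibroblasts or the ES cells have in the values of integrins and laminins was not tested, and the shift of both marker lists stands beside every result below.

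Levels are given as RPKM, reads relative to exon length and to the scaled library size, which can be compared between genes. In control, the highest levels were those of Itgb1 (183 RPKM), Itga6 (46.9), Lamb1 (33.2), Lamc1 (23.9), Itgav (19.7), Itgb5 (18.1), Lamb2 (17.0) and Lama1 (10.6). Itgb1, the β subunit shared by the largest number of integrins, made up 88.1% of the summed RPKM of β subunits, and Itga6 made up 55.0% of that of α subunits. The summed level was 208 RPKM for the β subunits and 85.3 RPKM for the α subunits. Of the leukocyte α subunits, Itgae was at 0.744 RPKM in control, and Itgad, Itgal, Itgam and Itgax, like the leukocyte β subunit Itgb2, were under 0.2 RPKM. Of the 10 blood cell markers, 3 had at least 10 reads on average, their summed level was 3.32, 4.05 and 4.41 CPM, and Ptprc, the pan-leukocyte marker, had 6, 6 and 12 reads. Cd68 was the most abundant, with 178, 255 and 241 reads, at log2 fold changes of 0.29 and 0.33, and Spi1 had 1, 11 and 11 reads. Of the 3 with enough reads, 0 were called in either knockdown.

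**Figure D1:**
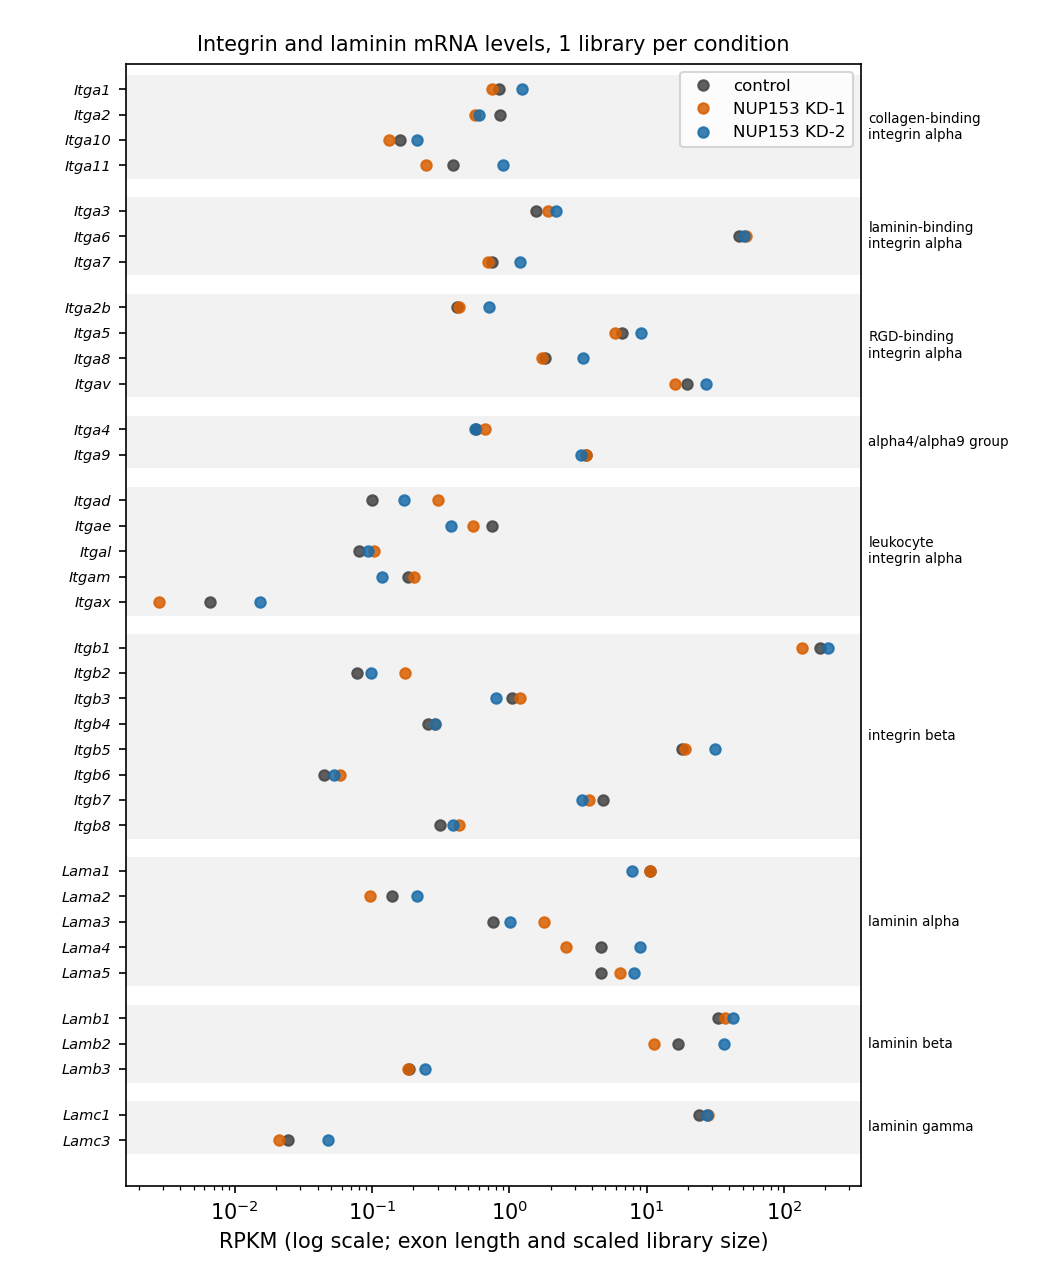
Level of integrin and laminin genes in RPKM on a log axis, 1 point per library (grey control, orange NUP153 KD-1, blue NUP153 KD-2), grouped by the role of the protein. Itgb1 lies highest, at 183, 135 and 208 RPKM, and Itgax lowest in all 3 libraries.

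A gene was called when its scaled reads differed by more than 1.5-fold (0.58 on the log2 scale) and the exact 95% counting interval of the fold change left out no change. The interval covers the counting of reads only. In KD-1 compared to control, 3 of the 36 genes were called higher (Itgad, Itgb2 and Lama3), where 6.48% of all 16670 genes were called higher. A further 3 were called lower (Itga2, Itga11 and Lama4), where 4.58% of all genes were called lower. The median log2 fold change was 0.03 for the 36 genes and 0.02 for all genes. In KD-2 compared to control, 10 of 36 were called higher (27.8%), where the share of all genes was 14.9%. These were Lama2, Lama4, Lama5, Lamb2, Itga2b, Itga7, Itga8, Itga11, Itgad and Itgb5. Itgae and Itgam were called lower, where 8.60% of all genes were called lower. The median was 0.38 for the integrin and laminin genes and -0.02 for all genes, and 28 of 36 had a log2 fold change above 0, compared to 48.3% of all genes. Both comparisons use the same control library, so that they are not independent.

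**Figure D2:**
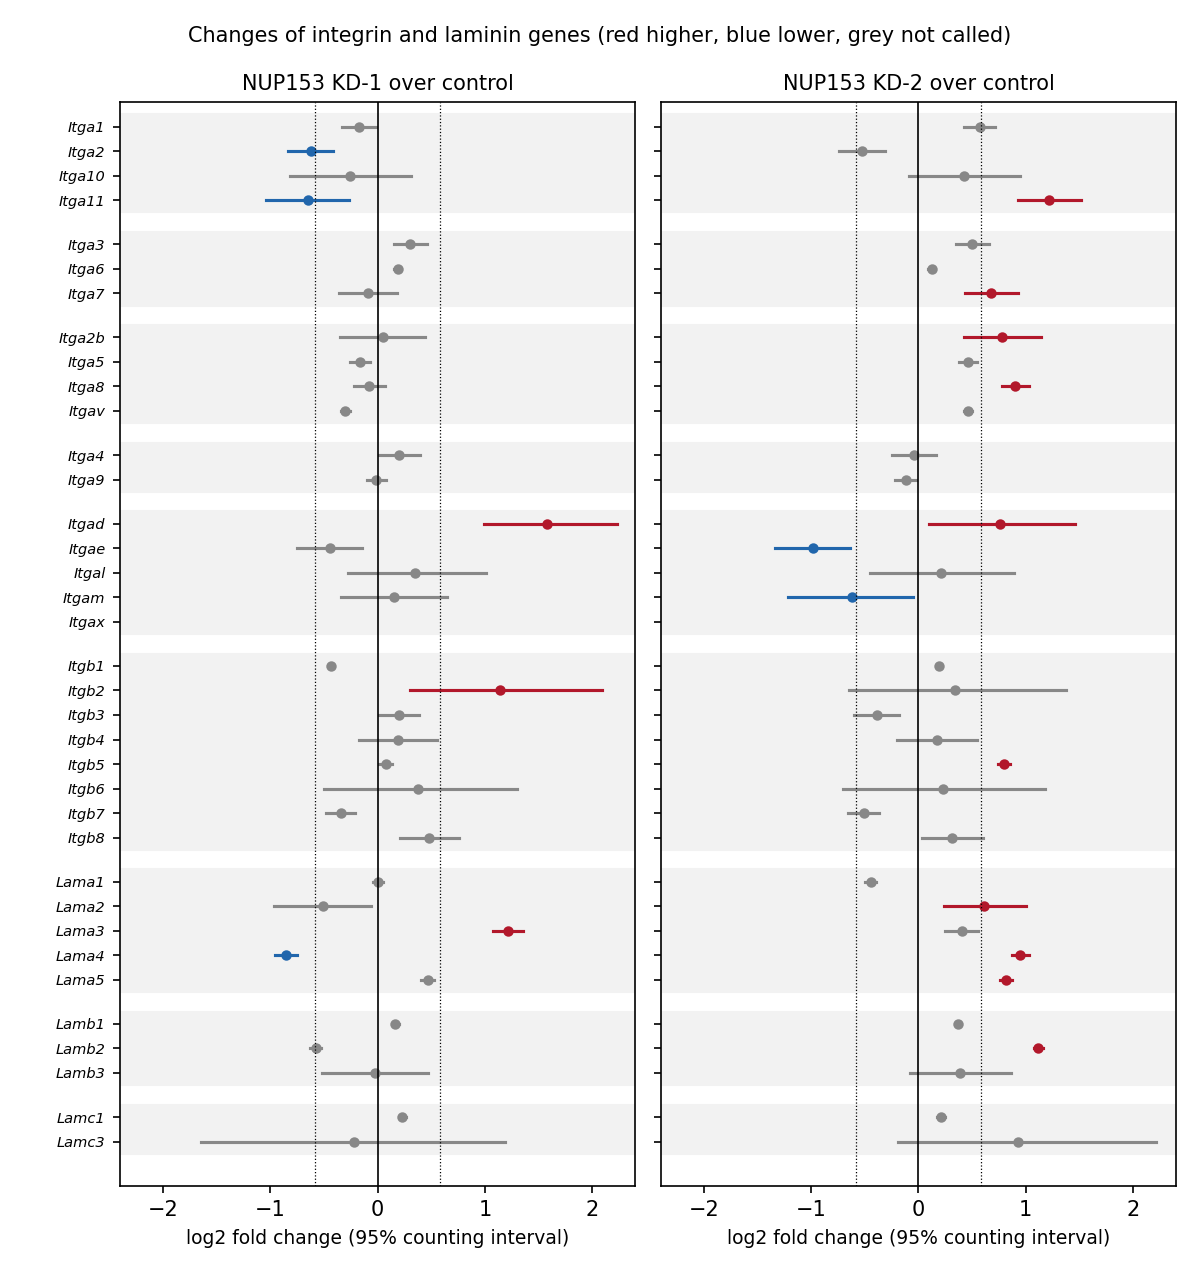
Log2 fold change of integrin and laminin genes with at least 10 reads on average, in KD-1 over control (left) and KD-2 over control (right), with exact 95% counting intervals as bars and the 1.5-fold limits as dotted lines. Red genes were called higher, 3 on the left and 10 on the right, and blue genes were called lower, 3 on the left and 2 on the right.

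Among laminin α chains, which give each laminin its receptor preference, Lama4 moved in opposite directions. Lama4, a chain of vessel and mesenchymal basement membranes (chromosome 10 from 38965515 to 39110188, GRCm38), had 1968, 1274 and 4095 reads. The KD-1 library was lowest, with a log2 fold change of -0.86 (interval -0.96 to -0.75), and the KD-2 library was highest, at 0.95 (0.87 to 1.03). Lama3, the α chain of the epithelial laminin that anchors hemidesmosomes (chromosome 18 from 12333819 to 12583013), had 575, 1565 and 818 reads. Here KD-1 was the high library, 2.32-fold above control (log2 fold change 1.22, interval 1.08 to 1.36), and KD-2 was at 0.40 (0.25 to 0.56) and was not called.

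Lama5, the most widespread α chain of embryonic and epithelial basement membranes (chromosome 2 from 180176373 to 180225859), had 3686, 5977 and 6992 reads. Both knockdown libraries were above control, at 0.47 (0.41 to 0.53) and 0.82 (0.76 to 0.87) on the log2 scale, and the KD-2 library alone passed the 1.5-fold limit. Lama1, the α chain of the first embryonic laminin, had 7075, 8319 and 5600 reads, and was called in neither library, with log2 fold changes of 0.01 and -0.44. Lama2, the muscle chain whose loss causes congenital muscular dystrophy, had 95, 78 and 157 reads. It was called higher in KD-2 (log2 fold change 0.62, interval 0.24 to 1.00) and was at -0.51 in KD-1.

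The makeup of the α chains therefore differed between libraries. Lama1 was 51.0% of the summed RPKM of α chains in control and 49.5% in KD-1, and 29.8% in KD-2. Lama4 was 22.4% in control and 12.0% in KD-1, and stood at 34.4% in KD-2, where it was the α chain with the highest level. Lama3 was 3.68% in control and 8.26% in KD-1. The shares have no replicate spread to be set against.

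Of the β chains, Lamb2 alone was called. Lamb2, found at neuromuscular synapses, in glomeruli and in vessels (chromosome 9 from 108479736 to 108490530), had 6671, 5247 and 15580 reads. The KD-2 library was 2.17-fold above control (log2 fold change 1.12, interval 1.08 to 1.16). The KD-1 library was below control at -0.57 (-0.63 to -0.52), just inside the 1.5-fold limit, and Lamb2 was called lower there with TMM scaling and with DESeq2's size factors. Lamb1, the partner of Lama1 and Lama5 in the embryo, had 13577, 17836 and 18877 reads, and was not called, at 0.17 and 0.37. Lamb3, the β chain of the epithelial laminin of Lama3, had 66, 76 and 93 reads and was not called in either library. Lamb2 made up 33.7% of the β chain RPKM in control, and 23.3% and 46.0% with the first and the second shRNA.

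Of the γ chains, Lamc1 and Lamc3 were called in neither knockdown library compared to control. Lamc1, present in most laminins, had 12743, 17508 and 15879 reads, with log2 fold changes of 0.23 (0.20 to 0.26) and 0.21 (0.18 to 0.24). Its level was 23.9, 28.1 and 27.7 RPKM. Lamc3 had 10, 10 and 21 reads, and its intervals included no change in both knockdowns.

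**Figure D3:**
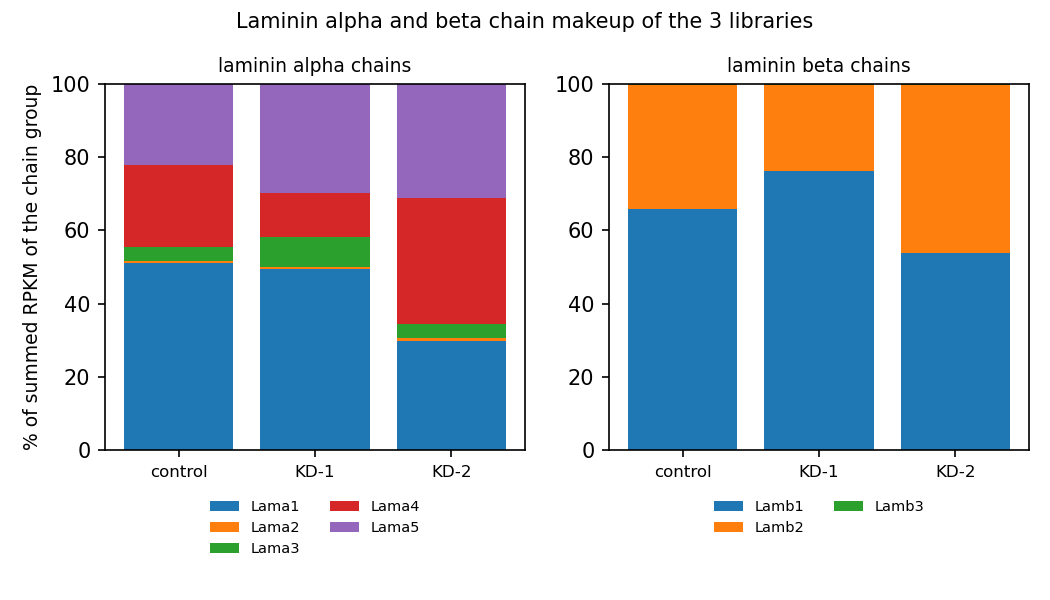
Share of each laminin α and β chain in the summed RPKM of its chain group, as stacked bars for control, NUP153 KD-1 and NUP153 KD-2, with 1 library each. Lama4 and Lamb2 take a smaller share in KD-1 (12.0% and 23.3%) and a larger share in KD-2 (34.4% and 46.0%) than in control (22.4% and 33.7%).

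The collagen-binding α subunits contain an inserted domain that recognizes fibrillar or network collagens, and pair with Itgb1. Itga11, the receptor for fibrillar collagen on fibroblasts (chromosome 9 from 62677826 to 62783982), had 134, 100 and 336 reads. It was called lower in KD-1 (-0.65 on the log2 scale, interval -1.04 to -0.27) and higher in KD-2 (1.22, interval 0.93 to 1.52). Itga2, the collagen receptor of platelets and epithelia (chromosome 13 from 114833081 to 114932100), had 428, 325 and 320 reads. It was below control in both knockdown libraries, and was called lower in KD-1 (-0.62, interval -0.84 to -0.41) but not in KD-2 (-0.53, interval -0.74 to -0.31). Itga1, which prefers basement membrane collagen, had 640, 666 and 1023 reads and was close to the limit in KD-2, at 0.57 (0.43 to 0.71). It was called higher there with TMM (0.61), DESeq2's size factors (0.61) and library totals (0.73). Itga10, a collagen receptor of cartilage, had 56, 55 and 81 reads and was not called in either.

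Of the laminin-binding α subunits, Itga6 had 14296, 19069 and 16759 reads, with log2 fold changes of 0.19 and 0.12, and was called in neither library. Itga3, which pairs with Itgb1 to bind the laminins of Lama3 and Lama5, had 571, 827 and 870 reads and was at 0.31 and 0.50. Itga7, the laminin receptor of muscle (chromosome 10 from 128933818 to 128958282), had 215, 237 and 370 reads. Only the KD-2 library stood apart, with a log2 fold change of 0.68 (0.43 to 0.93), and 9 bases of its exons overlap Mettl7b on the other strand.

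The α subunits that recognize the RGD tripeptide of fibronectin and vitronectin had their highest level in KD-2 in each case. Itgav, which pairs with several β subunits and activates latent TGF-β, had 9717, 9242 and 14421 reads, at log2 fold changes of -0.30 and 0.46. Itga5, the classical fibronectin receptor subunit, had 2014, 2107 and 2987 reads, at -0.16 and 0.46. Itga8, a nephronectin receptor of mesenchymal and smooth muscle cells (chromosome 2 from 12106632 to 12301922), had 743, 825 and 1496 reads. It was called higher in KD-2 (0.90, interval 0.77 to 1.03) and was at -0.08 in KD-1, and 372 bases of its exons overlap E030013I19Rik on the other strand. Itga2b, the fibrinogen receptor subunit of platelets (chromosome 11 from 102453297 to 102470122), had 100, 121 and 185 reads and was called higher in KD-2 (0.78, interval 0.42 to 1.15). Markers of platelets were near 0, with at most 4 reads for Gp9 and at most 16 for Pf4.

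Itga4 and Itga9, which bind VCAM1, fibronectin and tenascin, were called in neither library. Itga9 had 1821, 2116 and 1804 reads, and Itga4 had 392, 528 and 411 reads, with 127 bases of exon shared with Cerkl on the other strand.

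The leukocyte α subunits were measured with few reads, at most 200 in any library. Itgad (chromosome 7 from 128154376 to 128223816) had 30, 106 and 55 reads. Both knockdown libraries were called higher than control, at 1.58 (1.00 to 2.23) and 0.76 (0.10 to 1.46) on the log2 scale. The call in KD-2 was lost with an assumed dispersion of 0.01 between libraries. Exons of Itgad share 379 bases with genes on the other strand, among them Cox6a2. Itgae, the E-cadherin receptor subunit of intraepithelial lymphocytes (chromosome 11 from 73090583 to 73147446), had 200, 172 and 109 reads. It was called lower in KD-2 (-0.98, interval -1.33 to -0.64) and was at -0.44 in KD-1. Itgam had 63, 82 and 44 reads, and was called lower in KD-2 (-0.62, interval -1.21 to -0.05) with upper-quartile scaling, but not with TMM, DESeq2's size factors or library totals. Itgal had 36, 54 and 45 reads and was not called.

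The β subunits pair with the α subunits above. Itgb1 (chromosome 8 from 128685654 to 128733200) had 48814, 42204 and 59845 reads. Its log2 fold changes of -0.44 (-0.46 to -0.42) and 0.19 (0.17 to 0.20) were both under the limit. Itgb5, a vitronectin receptor subunit that pairs with Itgav (chromosome 16 from 33829665 to 33949338), had 4281, 5288 and 8004 reads. Its level in KD-1 was near control, at 0.08, and it was called higher in KD-2 (0.80, interval 0.74 to 0.85). Itgb2, the common β subunit of leukocyte integrins (chromosome 10 from 77530252 to 77565708), had 16, 42 and 22 reads, and was called higher in KD-1 (1.14, interval 0.30 to 2.09).

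The other β subunits were not called against control. Itgb7, the partner of Itga4 and Itgae, had 904, 834 and 683 reads, at -0.34 and -0.51. Itgb3, the partner of Itgav and Itga2b, had 424, 571 and 349 reads, at 0.20 and -0.39. Itgb8, which activates latent TGF-β with Itgav, had 182, 298 and 244 reads, at 0.48 and 0.32. Itgb4, the hemidesmosome partner of Itga6, had 113, 151 and 137 reads, and Itgb6, an epithelial partner of Itgav, had 19, 29 and 24 reads.

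Compared directly, KD-1 and KD-2 differed more from each other than either did from control by the count of calls. Of the 36 genes, 14 were called lower in the KD-1 library (38.9%), where 15.0% of all genes were called lower. In the other direction stood 5 genes (13.9%), Itgad, Itgam, Itgb2, Itgb3 and Lama3, where 12.0% of all genes were called higher. With TMM, DESeq2's size factors or library totals, 3 of these 5 were called, without Itgb2 and Itgb3. The median log2 fold change of KD-1 over KD-2 was -0.15 for the integrin and laminin genes and 0.12 for all genes. These medians depended on the scaling, and were -0.26 and 0.02 with DESeq2's size factors and -0.32 and -0.04 with library totals. Among the 14, Itga11 was at -1.86 (-2.21 to -1.54), Lama4 at -1.81 (-1.90 to -1.72), Lamb2 at -1.69 (-1.74 to -1.65), Lama2 at -1.13 (-1.54 to -0.73) and Itga8 at -0.98 (-1.10 to -0.86). All 4 RGD-binding α subunits were called lower, between -0.98 for Itga8 and -0.62 for Itga5, and Itgb1 was called lower at -0.63 (-0.64 to -0.61). The remaining genes called lower were Itga1, Itga7, Itga10, Itgb5 and Lamc3. Of the fibroblast markers, 13 of 13 were called lower in the KD-1 library, with a median of -1.63.

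The RefSeq promoter windows (GRCm38.p6, 300 bases each, most of them before the start site) covered 23 of the 37 genes in 26 windows. They are shown for the 4 genes with a window, a mean of at least 100 reads and the greatest difference between KD-1 and KD-2, to compare their start sites. Capitals mark CpG dinucleotides, the target of DNA methylation, and each sequence is printed on the strand of its gene. The window of Itga11 lies at chr9:62677605-62677904 on the plus strand, that of Lamb2 at chr9:108479612-108479911 on the plus strand, that of Lama2 at chr10:27616893-27617192 on the minus strand and that of Itga8 at chr2:12301895-12302194 on the minus strand. The Lama2 window lies inside the annotated span of the gene, which begins at 27619758 on the minus strand, and does not cover that start.
Itga11: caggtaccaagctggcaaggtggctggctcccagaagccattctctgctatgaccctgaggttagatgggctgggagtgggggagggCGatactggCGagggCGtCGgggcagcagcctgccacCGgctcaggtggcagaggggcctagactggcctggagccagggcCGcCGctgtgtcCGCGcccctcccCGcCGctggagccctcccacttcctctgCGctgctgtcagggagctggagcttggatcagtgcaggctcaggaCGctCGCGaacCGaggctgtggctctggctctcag
Lamb2: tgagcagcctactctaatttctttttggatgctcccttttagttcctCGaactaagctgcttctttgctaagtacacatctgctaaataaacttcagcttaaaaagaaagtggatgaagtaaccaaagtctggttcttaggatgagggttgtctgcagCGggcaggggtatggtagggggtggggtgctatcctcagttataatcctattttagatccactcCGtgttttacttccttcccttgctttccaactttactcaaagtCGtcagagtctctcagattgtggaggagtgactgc
Lama2: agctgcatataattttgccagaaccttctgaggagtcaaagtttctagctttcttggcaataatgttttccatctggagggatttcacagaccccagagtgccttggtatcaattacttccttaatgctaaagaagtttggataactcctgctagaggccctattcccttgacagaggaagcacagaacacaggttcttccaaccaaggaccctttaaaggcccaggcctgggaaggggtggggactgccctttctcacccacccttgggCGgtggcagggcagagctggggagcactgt
Itga8: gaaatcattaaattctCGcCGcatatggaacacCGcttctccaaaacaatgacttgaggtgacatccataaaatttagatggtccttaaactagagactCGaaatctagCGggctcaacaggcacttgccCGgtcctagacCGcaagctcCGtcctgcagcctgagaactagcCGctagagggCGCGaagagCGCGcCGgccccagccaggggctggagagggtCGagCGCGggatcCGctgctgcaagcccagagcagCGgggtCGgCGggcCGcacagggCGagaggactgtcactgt

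These 4 windows differ in composition. Itga11 held 16 CpG and Itga8 held 23, compared to 4 in Lamb2 and 1 in Lama2, and the median was 11 over the windows of integrins and laminins and 7 over all 32851 windows. Searched on both strands, the TATA box letters TATAAA were in 0 of the 26 windows and in 13.6% of all windows. The GC box letters GGGCGG, bound by SP factors, were in 12 of 26 (46.2%) and in 35.7% of all windows, and of the 4 printed windows in that of Lama2 alone. The AP-1 letters TGANTCA were in 3 of 26 (7.81% of all windows), and the TEAD letters GGAATG were in 3 of 26 (14.7% of all windows), and neither was in any of the 4 printed windows. A match is a description of the letters only.

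The proteins that laminins and integrins work with were counted in the same way. Of 29 basement membrane components and other laminin receptors, 1 was called higher and 4 lower in KD-1, and 13 higher and 1 lower in KD-2 (median log2 fold changes 0.09 and 0.55). These are 3.45% and 13.8% of the list in KD-1 and 44.8% and 3.45% in KD-2. Over all genes, the shares called higher and lower were 6.48% and 4.58% in KD-1, and 14.9% and 8.60% in KD-2, which also stand beside the lists that follow. Col4a1, the main collagen of basement membranes, had 3155, 6021 and 5936 reads and was called higher in both, at 0.70 and 0.80. Its partner chain Col4a2 had 2793, 3860 and 6509 reads, at 0.24 and 1.11. The type IV chains Col4a5, with 3906, 1908 and 7407 reads, and Col4a6, with 234, 169 and 468, were called in opposite directions. Col4a5 was at -1.26 and 0.82, and Col4a6 at -0.70 and 0.89. Nid1, which links laminin to type IV collagen, had 6324, 10107 and 10819 reads and was called in KD-2 only, at 0.67, compared to 0.45 in KD-1. Nid2 had 4038, 6116 and 3697 reads and was called in neither, at 0.37 and -0.23.

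Sdc2, a heparan sulfate proteoglycan that binds laminin, had 5527, 1974 and 9576 reads, at -1.71 and 0.69, and was called in both. Ntn4, a laminin-related netrin, had 160, 55 and 232 reads and was called lower in KD-1, at -1.76. In KD-2, Tinagl1, a matricellular protein, was called higher at 1.18, and Frem2, a protein of the epidermal basement membrane, was called lower at -0.90. Dag1, the laminin receptor dystroglycan, had 2158, 3619 and 2741 reads and was not called, at 0.52 and 0.24.

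Of the 31 other integrin ligands, Ccn1 and Ccn2 were not matched by symbol and Vtn, Ibsp and Madcam1 averaged under 10 reads. Of the remaining 26, 0 were called higher and 6 lower in KD-1, and 15 higher and 1 lower in KD-2 (medians -0.29 and 0.70), that is 0% and 23.1%, and 57.7% and 3.85%. Postn, a fibroblast matrix protein, had 6547, 1902 and 11277 reads, at -2.01 and 0.68, and Col1a2 had 3355, 1542 and 5908 reads, at -1.35 and 0.71. In KD-2, Col2a1 and Tgfb3 were called higher, at 1.12 and 0.99, and Cdh1, the E-cadherin bound by Itgae, was called lower at -0.71. Fn1, the fibronectin gene, had 83181, 92486 and 129506 reads and was not called, at -0.08 and 0.53. Col1a1, Col1a2, Col3a1 and Postn are also among the fibroblast markers above.

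Of the 39 cytoplasmic adaptors and kinases, 3 were called higher and 3 lower in KD-1, and 9 higher and 1 lower in KD-2 (medians -0.03 and 0.30), that is 7.69% and 7.69%, and 23.1% and 2.56%. Bcar1, a docking protein of focal adhesions, was called higher in both, at 0.72 and 0.64, and Git1, a paxillin-binding scaffold, in KD-1, at 0.71. Parva, which joins integrin-linked kinase to actin, had 2992, 2023 and 5164 reads, at -0.79 and 0.68, and was called in both. Ptk2b, a kinase of the focal adhesion kinase family, was called lower in KD-1, at -0.59. Plec, which ties Itgb4 to keratin filaments, had 11958, 12722 and 35647 reads and was the highest of the list in KD-2, at 1.47, followed by Tgfb1i1 at 0.93, and Fermt1, the kindlin of epithelia, was called lower there, at -0.92. Tln1, the talin that activates integrins, had 7408, 9189 and 11991 reads, at 0.08 and 0.59, and was called higher in KD-2, just past the 1.5-fold limit. The other talin gene, Tln2, was at 0.18 and 0.20 and was not called.

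**Figure D4:**
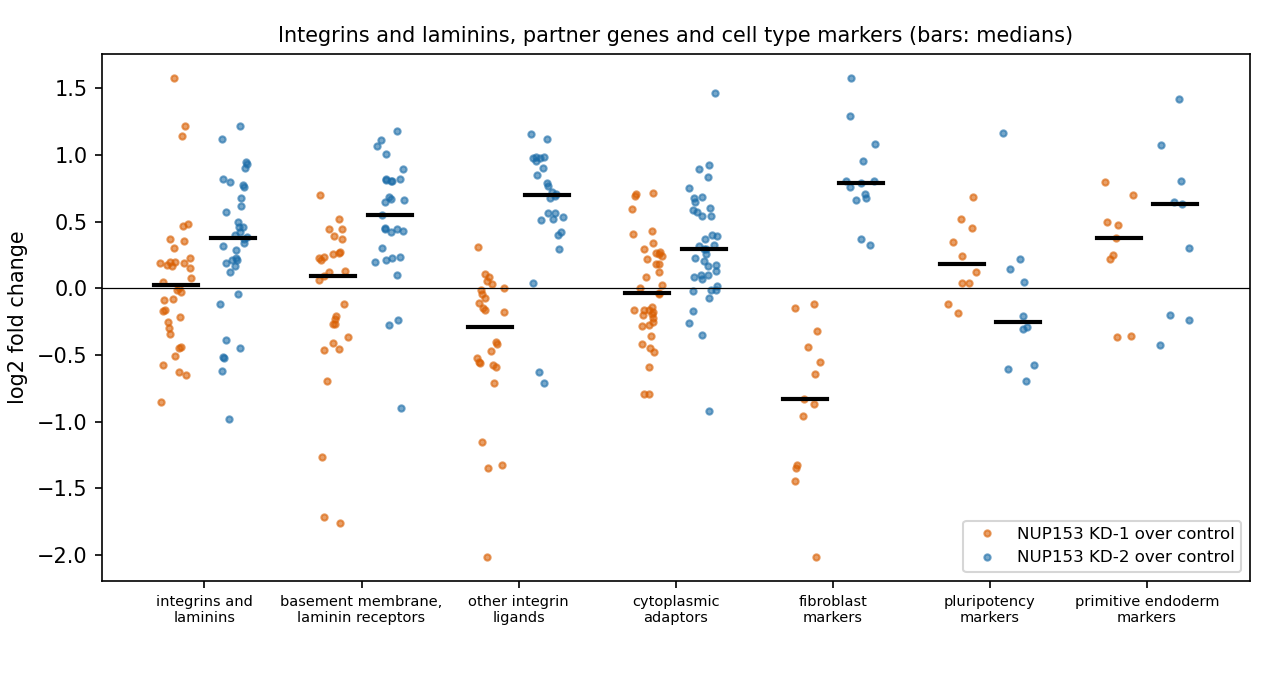
Log2 fold change of single genes over control in NUP153 KD-1 (orange) and NUP153 KD-2 (blue), for integrins and laminins, their partner lists and cell type markers with at least 10 reads on average, with black bars at the medians. The fibroblast markers lie below 0 in KD-1 (median -0.83) and above 0 in KD-2 (median 0.79), and integrins and laminins have medians of 0.03 and 0.38.

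The other marker lists moved less uniformly. Markers of primitive endoderm, the lineage that secretes Lama1, Lamb1 and Lamc1 in the embryo, had 9 of 10 genes with enough reads, of which 1 (11.1%) was called higher with the first shRNA and 5 (55.6%) with the second. The 5 were Gata6 (46, 63 and 105 reads, at 1.08 in KD-2), Amn (15, 25 and 44 reads, at 1.42), Dab2 (361, 502 and 604 reads, at 0.63), Sparc (8919, 8110 and 15082 reads, at 0.65) and Col4a1, which was also the 1 called in KD-1. Sparc and Col4a1 are in the basement membrane list as well, and Sparc was below control in KD-1, at -0.37. The factors Gata4, with 22, 20 and 20 reads, and Sox17, with 15, 31 and 20 reads, were not called. In KD-2, 3 of the 9 lay below control, and none of these was called. They were Gata4 (-0.24), Sox7 (97, 148 and 91 reads, at -0.20) and Srgn (30, 49 and 24 reads, at -0.42). Beside the rise of the epithelial laminin chain Lama3 in KD-1, the 6 surface epithelium markers summed to 18.5, 22.6 and 12.6 CPM, Krt5 had at most 3 reads and Krt14 at most 9. The most abundant of them was Cdh3, the P-cadherin gene, with 744, 1291 and 572 reads, at 0.57 (0.44 to 0.70) in KD-1 and just under the limit. Krt17 had 495, 508 and 306 reads, at -0.19 and -0.80, and was called lower in KD-2. Trp63 had 40, 34 and 61 reads, below control in KD-1 at -0.46 and above it in KD-2 at 0.50, and was not called. The 5 endothelium markers summed to 64.9, 74.5 and 49.5 CPM, and the 5 muscle markers to 8.86, 8.95 and 9.35 CPM. Of these, Kdr, with 296, 584 and 485 reads, was called higher in both knockdowns, at 0.75 and 0.60, and Acta1 was called higher in KD-2, at 0.64. Other members were below control in KD-2 and were not called. The endothelium markers Pecam1, with 2445, 3699 and 1903 reads, and Tek, with 1788, 1812 and 1329, were at -0.47 and -0.53 there. The muscle marker Myh3, with 336, 469 and 278 reads, was at 0.25 and -0.38. Cdh5 had at most 5 reads, Emcn at most 6 and Myod1 at most 1. What part these cell types have in the values above was not tested.

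With both knockdown libraries set against control as a group, edgeR's quasi-likelihood test called 0 of the 36 genes, and DESeq2's Wald test called 0 as well. Over all genes these tests called 1 gene (0.00600%) and 2 genes (0.0120%). At an unadjusted p under 0.05, 0 of the 36 were past the quasi-likelihood test, compared to 1.27% of all genes. The lowest unadjusted p-values in edgeR were 0.0688 for Itgad, 0.0815 for Lama3 and 0.128 for Lama5. Here both knockdown libraries provide the only spread, with 1 residual degree of freedom, and genes such as Lama4, Itga11 and Lamb2, which lay on opposite sides of control, have a wide spread in it. A p-value that misses the threshold does not show equal levels.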

How the data were processed

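RNA-Seq libraries were prepared after ribosomal RNA depletion from 1 control, 1 NUP153 KD-1 and 1 NUP153 KD-2 culture. Per the labels and the study's methods, the authors trimmed reads with Trim Galore 0.4.1, mapped them with TopHat2 2.1.1 to mm10 (GRCm38) and deposited raw counts of reads per gene. The labels name HTSeq as the counter and the methods name featureCounts, and the strand setting is not given in the sources used here. The deposited counts end in 5 summary lines, which were left out, and hold 0 spike-in rows, so that the spike-in normalization of the study could not be repeated. Reads outside of genes made up 21.5% to 24.1% of the counted reads and ambiguous reads 1.45% to 1.65%. CPM and RPKM were computed from the deposited counts.

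Libraries were scaled by upper-quartile normalization in edgeR 4.0.16 (R 4.3.3). Fold changes (log2) compare scaled reads after adding 0.5 to each, and 16670 genes, those averaging 10 reads or more, were tested. Exact Clopper-Pearson 95% intervals came from the split of the reads between 2 libraries, and cover counting error only. No p-value was given for comparisons of single libraries. Both knockdowns were tested against control as a group with edgeR's quasi-likelihood test and with DESeq2 1.42.0, with Benjamini-Hochberg adjustment over all genes tested. Exon lengths and positions were taken from GENCODE vM21 basic (GRCm38), which matched 24027 of 24421 symbols. Promoters were taken from RefSeq. The tests and intervals were run on simulated data. For the intervals these held counting error alone, and for the group tests both knockdown libraries had the same change. These simulations do not cover genes that move in opposite directions in the knockdown libraries. Members, partner lists and markers were chosen with earlier results of these data known, and are named by the rule that every integrin and laminin gene is accounted for, except 1 that counts among them but is not reported here, and, of each partner list, up to 2 called genes with at least 100 reads on average in each direction and knockdown, besides Nup153. Dag1, Nid1, Fn1 and Tln1, and the markers Gp9, Pf4, Krt14, Krt17, Cdh3, Sox17, Kdr, Acta1, Zfp42, Tdgf1, Utf1, Gata6, Amn, Dab2 and Sparc, lie outside of the rule and were chosen after their values were seen. Alternatives were TMM, DESeq2's size factors, library totals, a fold change above 2, minimum means of 100 reads or any read, a pseudocount of 5 reads and fixed dispersions of 0.01 and 0.04 with edgeR's likelihood ratio test. Scripts ran in Python 3.11.15 with numpy 2.4.6, scipy 1.17.1 and pandas 2.3.3, and plots were drawn with matplotlib 3.10.9.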

Additional observations from a re-analysis of the deposited data

Results flagged for a closer look

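Itga11 and Lama4 were called in opposite directions against the same control library. Itga11 was at -0.65 with the first shRNA and at 1.22 with the second on the log2 scale, and Lama4 at -0.86 with the first and at 0.95 with the second. With an assumed dispersion of 0.01 between libraries, the call of Itga11 in KD-1 was lost and those of Lama4 were kept. Whether the effects of the shRNAs differ beyond the spread between cultures was not tested, since each has 1 library. The summed fibroblast markers moved in the same directions, from 1286 CPM in control to 598 CPM with the first shRNA and 2528 CPM with the second, and their part in these values was not tested.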

How the results depend on the processing

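The count of called integrin and laminin genes depended most on the limit for the fold change and on the spread that is assumed between libraries. With a fold change above 2, 3 genes were called in KD-1 (main count 6), 2 in KD-2 (main count 12) and 5 between KD-1 and KD-2 (main count 19). When libraries were assumed to vary by 10% (dispersion 0.01), 3 genes were called in KD-1, namely Itgad, Lama3 and Lama4, without Itga2, Itga11 and Itgb2, and in KD-2 the calls of Itgad, Itgam and Lama2 were lost. When they were assumed to vary by 20% (dispersion 0.04), 0 were called against control with either shRNA, and 3 were called between KD-1 and KD-2 (Itga11, Lama4 and Lamb2). All other settings for single libraries gave counts within 1.5 times the main ones, and no called gene changed direction under another scaling or pseudocount. Library totals raised the median of all genes in KD-2 by 0.16 on the log2 scale, and gave 14 higher and 1 lower gene among integrins and laminins, with Itga1, Itga3, Itga5 and Itgav added and Itgam lost. The split over all genes depended on the scaling, with 1081 higher and 763 lower in KD-1 by the upper quartile and 858 and 936 by DESeq2's size factors. In KD-2 it was 2480 and 1433, and 3546 and 631 by library totals, and between KD-1 and KD-2 it was 2006 and 2508, and 976 and 3298 by library totals. The median of integrins and laminins in KD-1 was -0.04 with DESeq2's size factors. The group test called 0 of these genes under each of its 5 alternatives. Leaving out either knockdown library leaves 1 library against 1, with no residual degrees of freedom, which gives the single comparisons above and no test. No paired analysis was possible because each group has 1 library. Genes with fewer than about 100 reads, such as Itgad, Itgam, Itgb2 and Lamc3, are limited by depth.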
